A study of Saccharomyces cerevisiae with 24 samples.

Results

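Strains YSS89 and YSS37 of budding yeast were compared 60 min after galactose was added, with 3 arrays each, which are 6 of the 24 arrays of the series. The arrays were chosen by strain and time as labelled, with no measured value used. YSS37, labelled wild type, is a MATa haploid that carries IFH1-13myc-TRP1, so that the gene is tagged but keeps its own promoter. YSS89, also MATa, carries UASGAL1-IFH1-13myc-TRP1, written in full as UASIFH1::HIS3-UASGAL1, in which the upstream activating sequence (UAS) of IFH1 is replaced by HIS3 and that of GAL1. Both strains thus share the tag, the TRP1 marker and the treatment: growth to log phase at 30 °C in YPLG medium, then galactose to 2%. The 3 arrays of a group are biological replicates by the labels. The labels give the time without a unit, and minutes are assumed.

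Ifh1 is a coactivator that joins ribosomal protein (RP) gene promoters by binding Fhl1, a forkhead protein that sits there together with Rap1. RP genes are among the most strongly transcribed genes of growing yeast, and their transcription falls in starvation and stress, when the TOR kinases are inactive and Ifh1 leaves the promoters. Ifh1 is also found in the CURI complex, with casein kinase 2, Utp22 and Rrp7, which process pre-ribosomal RNA. The comparison asks how messenger RNA levels differ when IFH1 is driven by galactose.

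Single intensities below are as deposited. Differences are log2 values, YSS89 minus YSS37, after normalization between arrays, and whether groups overlap was judged on the normalized values. A gene was called when its adjusted p by limma, with Benjamini-Hochberg adjustment over 9275 probe sets, was under 0.05, and called genes are written as higher or lower in YSS89. Of 5656 genes, 799 were called higher in YSS89 (14.1%) and 562 lower (9.94%), and the median of all genes was 0.10. The balance depended on scaling: 980 were called higher and 502 lower on the values as deposited, and 615 and 613 with median centring. With only the 6 arrays at 60 min in the fit it was 353 and 378, and with round as a block (described below) 146 and 184. Of the 9275 probe sets, 1816 were called (19.6%), 935 higher (10.1%) and 881 lower (9.5%), and among the 2443 that name no gene 62 were called higher (2.54%) and 209 lower (8.56%). Large differences were mostly downward: 187 of the called genes were at least 2-fold lower (3.31% of all genes) and 69 at least 2-fold higher (1.22%). The 3 YSS89 arrays lay above the 3 YSS37 arrays in 1627 genes (28.8%) and below them in 967 (17.1%).

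The arrays differ in more than strain. YSS37 replicates 1 and 2 were hybridized in round 1, YSS37 replicate 3 and YSS89 replicate 1 in round 2, and YSS89 replicates 2 and 3 in round 3. No chip lot was shared between the strains at 60 min, so lot and strain cannot be told apart. At time 0 and at 30 min the strains shared no round. YSS37 arrays were all of round 1 at those times. YSS89 arrays were of rounds 2 and 4 at time 0 and of rounds 2 and 3 at 30 min. With round as a block, 305 of the 1361 calls remained in the same direction and 1358 kept their sign, so the number of calls that remained with it is given below for each gene group. At 60 min the strains share only round 2, with 1 array each, so differences are estimated less precisely with the block. A call lost with it does not by itself mean a smaller difference. When each of the 6 arrays was left out in turn, 652 genes were called every time. Arrays of a group correlated over probe sets at r of 0.969 to 0.986. The ratio of 3' to 5' ACT1 probe sets was 1.335 to 1.495 in YSS37 and 1.243 to 1.39 in YSS89. The a-cell gene STE2, the receptor for alpha-factor, read 91.9 to 107.4 in YSS37 and 123.8 to 143.3 in YSS89, and the alpha-cell gene STE3 read at most 12.5. The a-cell genes STE6, BAR1, MFA1, MFA2 and AGA2 read 34.1 or more, and MF(ALPHA)1 and MF(ALPHA)2 at most 10.5. Not all markers split this way: the a-cell gene ASG7 read 0.5 to 4.4, and the alpha-cell gene SAG1 read 20.5 to 31.6.

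**Figure D1:**
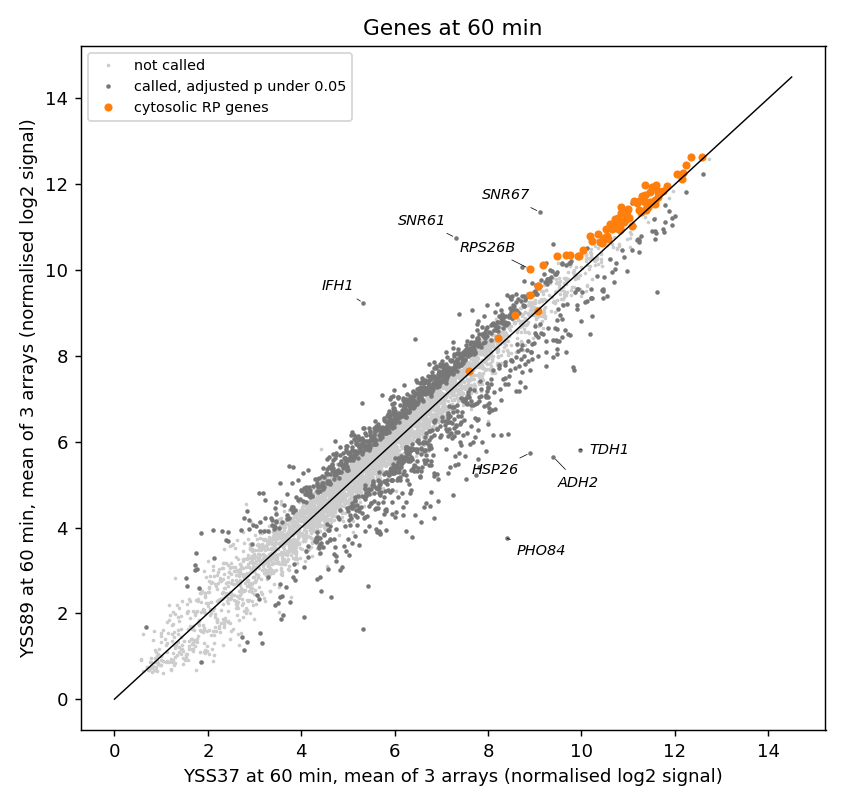
Mean normalized log2 signal of each of 5656 genes at 60 min, YSS37 on the x axis and YSS89 on the y axis (3 arrays each), with called genes in dark grey, cytosolic RP genes in orange and a line of equal values. IFH1 stands above the diagonal, and PHO84, TDH1, ADH2 and HSP26 stand far below it.

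IFH1 had the largest upward difference of the genes named by rule. It read 41.6, 39.8 and 33.3 in YSS37 and 557.4, 574.9 and 584.5 in YSS89. The 2 groups were far apart and each was tight, with means of 38.2 ± 4.37 (SD, n = 3) and 572 ± 13.7 (SD, n = 3). The difference was 3.90 (SE 0.17, 14.9-fold, limma adjusted p = 1.96e-11), and it was 3.99 with round as a block and also 3.99 between the 2 arrays of round 2. At 30 min the strain difference of IFH1 was 5.02.

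Genes used as markers in yeast strains were read next, of which HIS3 and TRP1 are in the constructs described above. HIS3, placed upstream of IFH1 in YSS89, read 10, 7 and 7.1 in YSS37 and 17.8, 16.3 and 8 in YSS89, and was not called (0.76, SE 0.30, adjusted p = 0.0891). TRP1, present in both constructs, read 280.5 to 312.3 and 239.7 to 306.9, and was not called (-0.09, adjusted p = 0.717). MET17, an enzyme of homocysteine synthesis and a common auxotrophic marker, was called lower, with 794.3, 989 and 1027.7 against 192.3, 225.8 and 187.2 (-2.17, SE 0.17, adjusted p = 7.60e-08). The call remained with round as a block (adjusted p = 0.000124). LYS2 was called higher (0.52, adjusted p = 0.0235), but not with that block, nor when YSS37 replicate 1 or 3, or YSS89 replicate 1 or 2, was left out.

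Of the 4 annotated genes on each side of IFH1, 3 were called higher (37.5%, against 14.1% of all genes) and none lower. ADY4, a spindle pole body protein used in meiosis, read 2.4, 1.5 and 4.7 in YSS37 and 9.5, 17.9 and 14.2 in YSS89, both near the floor of the array (adjusted p = 0.00428), so that the size of its difference is uncertain. BUR2, the cyclin of the Bur1 kinase, read 21.2 to 29.6 against 45.2 to 50.8 (0.90, adjusted p = 0.00832). UTP13, a member of the U3 small subunit processome, differed by 0.43 (adjusted p = 0.0169), and its call was lost without YSS37 replicate 2 or YSS89 replicate 1. No call of these 3 remained with round as a block. The other 5 neighbours lay between -0.04 and 0.44.

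Among the 17 regulators of RP genes, 7 were called higher (41.2%, against 14.1% of all genes) and none lower. This share includes IFH1, whose difference was built into YSS89, so it overstates the share among the other regulators. FHL1, which encodes the promoter-bound partner of Ifh1, read 19.3, 23.1 and 17.7 in YSS37 and 28.5, 33.6 and 31.8 in YSS89 (0.56, SE 0.16, adjusted p = 0.0165). RAP1, the general regulator bound at RP promoters, read 49.2, 48.7 and 62.3 against 81.8, 73.3 and 87.6 (0.49, SE 0.16, adjusted p = 0.0335). In both genes the groups did not overlap, although FHL1 lost its call without YSS37 replicate 3 or YSS89 replicate 2, and RAP1 without YSS37 replicate 1 or 2 or YSS89 replicate 1 or 3. TOR1, a kinase of the nutrient signalling complex, read 37.7, 37 and 37.8 against 64.1, 74.4 and 71.3 (0.77, SE 0.16, adjusted p = 0.00249), and was called whichever array was left out. None of the other 8 probe sets of TOR1 was called, so the call rests on 1 probe set. The brighter of these differed by 0.54 and 0.31, and the rest had means of at most 7.7, near the floor. TOR2 (0.43), TOD6, a repressor of ribosome biogenesis genes (0.75), and MRS6, which binds Sfp1 (0.35), were also called higher. Each lost its call without YSS89 replicate 1, and also TOR2 without YSS37 replicate 3, TOD6 without YSS37 replicate 2 and MRS6 without YSS89 replicate 3. HMO1, the high mobility group protein at RP promoters, read 301.4 to 450.8 against 247.2 to 300.3 and was not called (-0.42, adjusted p = 0.121). SFP1, an activator of RP genes, differed by 0.05 (adjusted p = 0.854), and its sign turned under several settings. CRF1, the corepressor that competes with Ifh1 for Fhl1 in some strains, read 5.8 to 9.1 and 6 to 7.1, near the floor in both. Without YSS89 replicate 1 the count of 7 fell to 3, and with round as a block the call on IFH1 alone remained.

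In the CURI complex 4 of 7 members were called higher (57.1%, against 14.1% of all genes), with a median difference of 0.66. This share also includes IFH1, and so overstates the share among the other members. UTP22, a processing factor of the small subunit, read 147.1, 144.8 and 106.8 in YSS37 and 238.9, 247.4 and 329.9 in YSS89 (1.01, SE 0.20, adjusted p = 0.00141). It had 6 probe sets, of which 5 were called higher. CKB1, a regulatory subunit of casein kinase 2, read 139.6, 134.3 and 113.6 against 215.5, 201.5 and 200.6 (0.66, SE 0.12, adjusted p = 0.000831). UTP22 and CKB1 kept their calls with round as a block and whichever array was left out. CKA1, a catalytic subunit, was called (0.70, adjusted p = 0.0136), and lost the call without YSS37 replicate 2 or 3 or YSS89 replicate 1. RRP7 (0.50, adjusted p = 0.0856), CKA2 (0.28) and CKB2 (0.12) were not called.

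**Figure D2:**
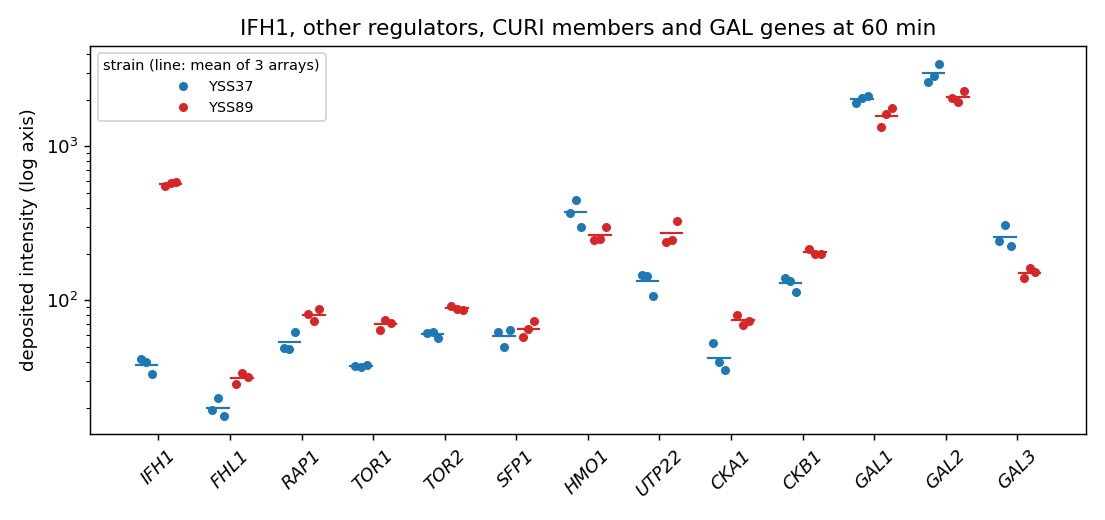
Deposited intensity (log axis) on each array at 60 min for IFH1, other regulators of RP genes, CURI members and GAL genes; each point is 1 array and each line the mean of 3 arrays, with YSS37 in blue and YSS89 in red. IFH1 shows the widest gap between strains, UTP22, CKB1 and TOR1 a smaller gap without overlap, and SFP1 overlapping arrays.

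Cytosolic RP genes were higher in YSS89 by small amounts. Of 81 measured with a probe set of their own, 29 were called higher (35.8%, against 14.1% of all genes) and none lower, with a median difference of 0.27 against 0.10 over all genes. The difference was above 0 in 77 of the 81, and ranged from -0.05 to 1.14 (SD 0.222 over genes). In 58 of them (71.6%, against 28.8% of all genes) all YSS89 arrays lay above all YSS37 arrays. The median normalized level of these genes was 10.92, 10.9 and 10.96 in YSS37 and 11.21, 11.27 and 11.2 in YSS89. Its spread within a strain was thus smaller than the gap between strains. At 30 min the median difference was 0.38.

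By subunit, 14 of 47 large subunit genes and 15 of 34 small subunit genes were called higher, with medians of 0.26 and 0.30. RPS26B, a small subunit protein, had the largest difference by the brightest probe set of each gene: 462.6, 489.9 and 532.6 in YSS37 and 1059, 969.7 and 1046.3 in YSS89 (1.14, SE 0.14, 2.21-fold, adjusted p = 2.85e-05). RPL36B read 589.5, 640.4 and 597.9 against 980.9, 1167.5 and 1102.4 (0.93, SE 0.15, adjusted p = 0.000285). RPL33B read 764.2, 702.2 and 750.5 against 1142.4, 1350.6 and 1344.6 (0.85, SE 0.10, adjusted p = 1.01e-05). None of these 3 genes had overlapping groups, and their calls stood in every setting that left out 1 array and with round as a block. RPS9A (0.57, adjusted p = 0.00346) also kept its call with that block. RPS10B (0.69) and RPL14B (0.61) were called whichever array was left out, but not with round as a block. RPS28B (0.63) lost its call without YSS37 replicate 2. Its dimmer probe set differed more, with means of 633 and 1359 (1.175, SE 0.13, adjusted p = 9.40e-06), so the size for this gene depends on the probe set. The brighter probe set of RPS28B already differed by 0.91 at time 0 (limma adjusted p = 0.00104), before galactose, where strain and round cannot be told apart. At time 0 RPS26B, RPL36B and RPL33B differed by -0.51, -0.13 and -0.33. In all, 22 of the RP genes had more than 1 probe set, and in 6 of them the probe sets differed in call. RPL36A (0.61) lost its call without YSS37 replicate 1 or 2 or YSS89 replicate 1 or 2.

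The number of RP genes called depended on the scaling and on single arrays, and the median stayed above 0 in every setting tried. On the values as deposited, without quantile normalization, 36 large subunit and 30 small subunit genes were called and the median of all 81 was 0.50. With median centring the counts were 24 and 20 and the median 0.42. With round as a block 6 of the 29 calls remained and the median was 0.26, and between the 2 arrays of round 2 it was 0.24. Leaving out 1 array gave 15 to 23 calls, with 18 without YSS37 replicate 1, 15 without YSS37 replicate 2, 19 without YSS89 replicate 1 and 16 without YSS89 replicate 3.

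Most yeast RPs are encoded by a pair of duplicated genes, and 31 pairs had a probe set for each copy. The B copy had the larger difference in 16 pairs and the A copy in 15. The widest gap was in the RPS26 pair: RPS26B differed by 1.14, and RPS26A by 0.19 (adjusted p = 0.178). In the RPL33 pair the values were 0.85 for RPL33B and 0.35 for RPL33A (adjusted p = 0.0263). These pairs were picked after their values were seen, and probe sets of near-identical copies can share signal. A further 59 probe sets name more than 1 RP copy. Of these, 12 were called higher (20.3%, against 10.1% of all probe sets) and none lower. Their median was 0.27, against 0.06 over all probe sets. The highest were a probe set for RPL40A and RPL40B (0.78), 1 for RPL14B and RPL14A (0.76) and 1 for RPL41B and RPL41A (0.76). The lowest were 1 for RPL12A and RPL12B (-0.05) and a pair for RPL8A and RPL8B (both -0.03).

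**Figure D3:**
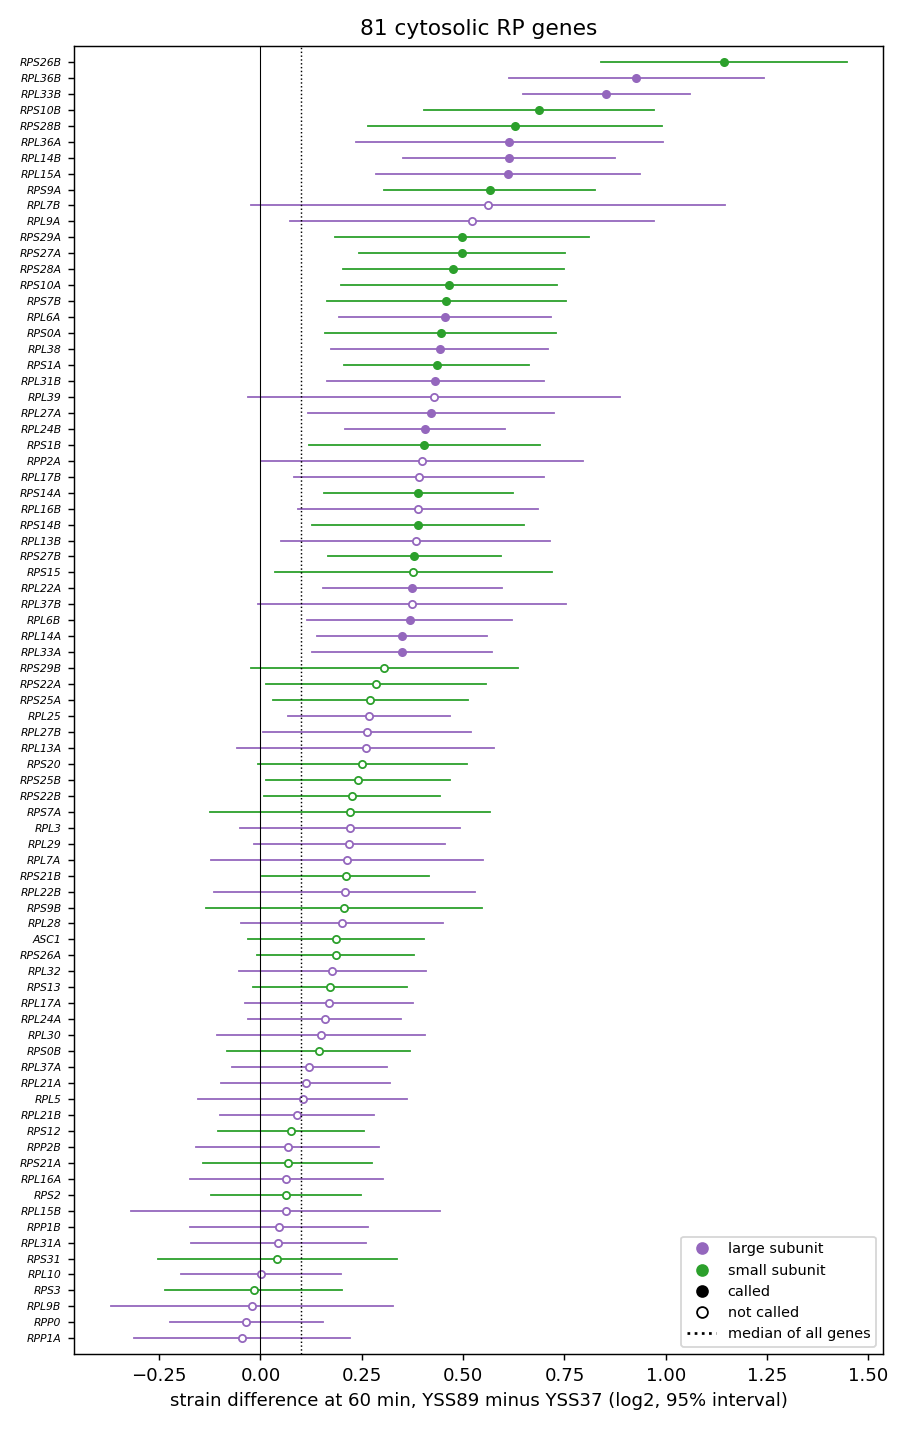
Strain difference at 60 min (log2, YSS89 minus YSS37) for each of 81 cytosolic RP genes, with its 95% interval; large subunit genes are purple and small subunit genes green, called genes have filled points, and the dotted line is the median of all genes. RPS26B lies farthest to the right at 1.14, 77 genes lie above 0, and no gene was called lower.

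Genes that build and use ribosomes were also higher in YSS89. Of 73 genes of 40S assembly and the small subunit processome, 30 were called higher (41.1%, against 14.1% of all genes) and none lower (median 0.45). Of 96 genes of 60S assembly and export, 39 were called higher (40.6%) and none lower (median 0.46). UTP22 led the first group, followed by GAR1, a core protein of pseudouridylating small nucleolar RNPs, with 465.7, 430.6 and 442 against 962.7, 737 and 804.9 (0.99, adjusted p = 0.000466). TSR1, a late 40S factor, read 196.3 to 205.8 against 336.5 to 350.6 (0.82, adjusted p = 0.000607). In the 60S group REH1, a cytoplasmic maturation factor, read 108.2, 101.3 and 95.5 against 232.4, 199.3 and 228.5 (1.09, SE 0.11, adjusted p = 3.74e-06). RPF2, needed to place the 5S particle, was 2.01-fold higher, and NOG2, a GTPase of the pre-60S particle, differed by 0.89 by its brighter probe set, while the other NOG2 probe set was not called (0.48). UTP22, GAR1, TSR1 and REH1 kept their calls with round as a block, and RPF2 and NOG2 did not. In all, 7 calls of the 40S group and 2 of the 60S group remained with that block. The 40S count was 17 without YSS37 replicate 1, 14 without YSS37 replicate 2, 16 without YSS89 replicate 1 and 15 without YSS89 replicate 3. The 60S count was 19 without YSS37 replicate 2 and 24 without YSS89 replicate 3.

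For these 2 groups, and for others, the arrays of the strains differed before galactose was added. At time 0 the median difference was 1.16 for the 40S group and 1.03 for the 60S group, larger than at 60 min. Of the 3 YSS89 arrays at time 0, 2 were hybridized in a round of their own and had 25S rRNA control signals of 90.9 and 313, below the 560 to 742 of the other time 0 arrays. Without those 2 arrays, with 1 YSS89 array left, the medians were 0.93 and 0.81. The array left was of round 2 and the YSS37 arrays of round 1, so strain and round cannot be told apart at time 0. The cytosolic RP genes differed at time 0 by a median of -0.14, or -0.21 without those 2 arrays. Other groups also differed at time 0. Medians were 0.65 for RNA polymerase I and III, 0.44 for translation factors and 0.69 for purine synthesis and one-carbon metabolism. They were 0.72 for the neighbours of IFH1 and -0.85 for glycogen and trehalose genes. Without those 2 arrays these medians were 0.66, 0.35, 0.54, 0.35 and -0.36, in that order. Aminoacyl-tRNA synthetases (0.13) and proteasome genes (-0.17) differed less. No part of any 60 min difference was subtracted for the difference at time 0.

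RNA polymerase I and III genes had 9 of 37 called higher (24.3%, against 14.1% of all genes) and none lower, with a median of 0.38. RPA49, a polymerase I subunit, read 208.9 to 224.7 against 285 to 353.8 (0.64, adjusted p = 0.00887), and BDP1, a subunit of TFIIIB, read 19.7 to 38.6 against 51.6 to 58.4 (0.84, adjusted p = 0.00525). The BDP1 call alone remained with round as a block, and the count was 5 without YSS37 replicate 3 or YSS89 replicate 2. Translation factors had 19 of 43 called higher (44.2%), with 12 without YSS37 replicate 2, and 1 lower (median 0.40). GCD7, a subunit of the guanine nucleotide exchange factor eIF2B, read 120.4 to 129.7 against 206.8 to 250.6 (0.86, adjusted p = 0.00122) and was the 1 of these 20 calls that remained with round as a block. RPG1, an eIF3 subunit (0.76), SUP35, the release factor eRF3 (0.63), and CAF20, which binds eIF4E (0.62), were called whichever array was left out. HEF3, a homolog of the elongation factor eEF3, was the factor called lower (-0.89, adjusted p = 0.0444), and kept its call only without YSS37 replicate 3 among the 6 arrays.

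Aminoacyl-tRNA synthetases had 10 of 23 called higher (43.5%, against 14.1% of all genes) and none lower (median 0.38). YHR020W, a predicted prolyl-tRNA synthetase, read 277.4, 261.8 and 224.5 against 493.7, 588.9 and 595.2 (1.21, SE 0.17, adjusted p = 8.12e-05). The alanine enzyme ALA1 (0.69), the isoleucine enzyme ILS1 (0.67) and the methionine enzyme MES1 (0.56) were also called higher whichever array was left out. Of the 10 calls, that on YHR020W alone remained with round as a block. Mitochondrial RP genes went the other way: none of 71 was called higher and 8 were called lower (11.3%, against 9.94% of all genes), with a median of -0.37. One of the 8 is KGD4 (-0.48, adjusted p = 0.0086), which the list holds under an older name and which is known as a subunit of alpha-ketoglutarate dehydrogenase, not a ribosomal protein. MRPL17, of the large mitochondrial subunit, read 99.5 to 124.3 against 70.7 to 75.9 (-0.69, adjusted p = 0.0114), a call lost without YSS37 replicate 3. All YSS89 arrays lay below all YSS37 arrays in 38 of the 71, while they did in 17.1% of all genes. No mitochondrial RP call remained with round as a block, where the median was -0.41. The count was 5 without YSS37 replicate 1, 4 without YSS37 replicate 3, and 5 without YSS89 replicate 1 or 3.

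Small structural RNAs were frequent among the largest upward differences, a class examined after the values were seen. Of the 15 largest that passed the naming rule, 7 are noncoding, 5 of them small nucleolar RNAs (snoRNAs), which guide ribosomal RNA modification and processing. The 7 also include a tRNA gene, YNCM0035C, and a spliceosomal RNA. Among all 5656 genes, 57 are snoRNAs. SNR61 read 176.7, 140.9 and 151.2 in YSS37 and 1878.1, 1637.7 and 2259 in YSS89 (3.44, SE 0.70, 10.8-fold, adjusted p = 0.00197). SNR67 read 562.8, 523.2 and 664.8 against 3304.4, 2525.9 and 3455.6 (2.24, SE 0.33, adjusted p = 0.000112). The groups of both genes were widely separated. SNR50 (1.71), SNR75 (1.59) and SNR17A, the U3 snoRNA (1.70), were called higher too, SNR17A not without YSS37 replicate 3. The U4 spliceosomal RNA SNR14 (1.83) was also called. All 6 kept their calls with round as a block. Over all 57 snoRNA genes measured, 22 were called higher (38.6%, against 14.1% of all genes) and none lower, 8 of them also with round as a block. The snoRNA median was 0.62 at 60 min, 0.76 at 30 min and 0.23 at time 0. Of 91 tRNA genes 9 were called higher (9.89%, against 14.1% of all genes) and none lower, with 3 calls left with the block. The labels describe total RNA, and how far such short RNAs are labelled equally on each array was not tested.

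Proteasome genes were higher in YSS89 at 60 min: 11 of 34 were called higher (32.4%, against 14.1% of all genes) and none lower, with a median of 0.29. RPN13, a ubiquitin receptor of the regulatory particle, read 264.4, 227.7 and 229.4 against 486.1, 446.4 and 508.4 (1.03, SE 0.16, adjusted p = 0.000196). RPT1, an ATPase of the base, read 237, 223.9 and 243.6 against 371, 344.4 and 356.9 (0.65, SE 0.11, adjusted p = 0.000329). The scaffold subunits RPN1 (0.62) and RPN2 (0.54) were called as well. RPN13 and RPN2 kept their calls with round as a block, and 3 of the 11 did in all. The count was 6 without YSS37 replicate 1, 7 without YSS37 replicate 3 and 7 without YSS89 replicate 1.

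The proteasome group differed between the 2 later times. At 30 min its median strain difference was -0.51. The strains shared a hybridization round at 60 min and none at 30 min, so the round layout changed along with the time. Tested as the strain difference at 60 min minus that at 30 min in the same fit, 22 of the 34 were called higher at 60 min and none lower, against 1.43% and 0.389% of all genes (1.82% in either direction). This test was chosen after the values were seen. It gave 14 genes with round as a block and 10 to 21 with 1 of the 12 arrays left out. It gave 10 to 14 without YSS37 replicate 1 or 3 or any YSS89 replicate at 60 min, or without replicate 2 or 3 of either strain at 30 min. Of 12 genes called in opposite directions at the 2 times, 7 encode proteasome subunits.

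**Figure D4:**
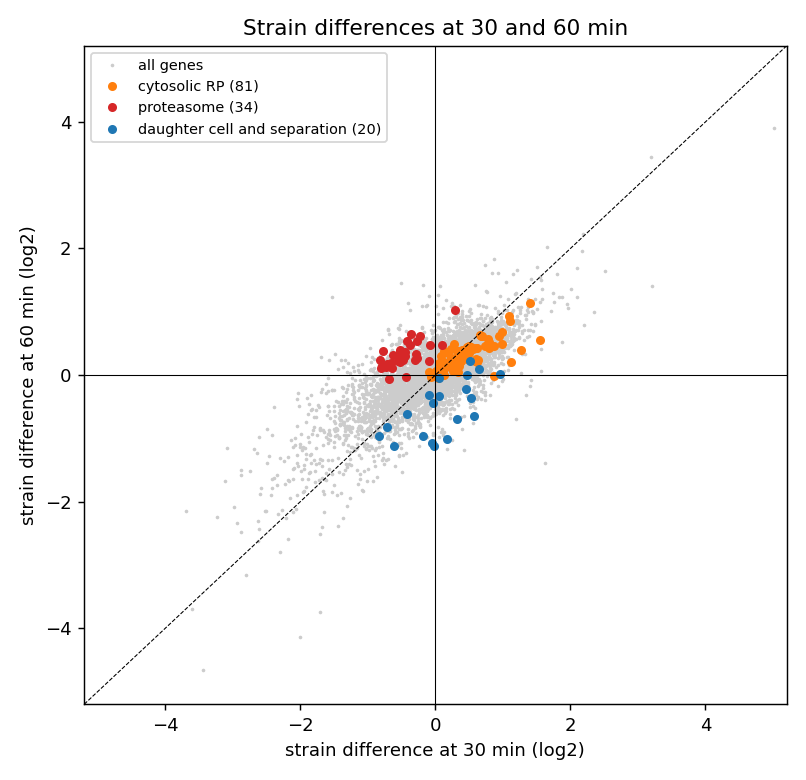
Strain difference at 30 min (x axis) and at 60 min (y axis) for each of 5656 genes (log2, YSS89 minus YSS37), with proteasome genes in red, cytosolic RP genes in orange, daughter cell genes in blue and a dashed line of equal values. Of 34 proteasome genes 22 were called above the line, and IFH1 below it, at 5.02 and 3.90.

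At 30 min 2184 genes were called (38.6%). Of the 799 genes higher at 60 min, 551 were higher at 30 min, which is 69% of the former and 47.3% of the 1166 higher at 30 min. Of the 562 lower at 60 min, 441 were lower at 30 min, 78.5% of these and 43.3% of the 1018 lower at 30 min. The arrays of the 2 times are separate samples, and the strains shared a hybridization round at 60 min only.

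The galactose pathway, which both strains use, was not higher in YSS89. None of its 9 genes was called higher and 3 were called lower (33.3%, against 9.94% of all genes, median -0.45). GAL3, the galactose sensor, read 241.9, 310.7 and 224.1 in YSS37 and 140.1, 161.9 and 151.9 in YSS89 (-0.74, SE 0.14, adjusted p = 0.000934). GAL2, the galactose permease, read 2639.7 to 3453.1 against 1938.4 to 2303 (-0.72, adjusted p = 0.0341), a call lost when any 1 of the 6 arrays was left out. PGM2, the main phosphoglucomutase, read 301.5 to 523.7 against 143.7 to 190.8 (-1.29, adjusted p = 0.00721). GAL1, the galactokinase whose UAS drives IFH1 in YSS89, read 1906.9, 2050.8 and 2117 against 1340, 1631.4 and 1766.7, without overlap, and was not called (-0.48, adjusted p = 0.0647). It was called when the 2 arrays of YSS89 at time 0 that stood apart were left out of the fit (adjusted p = 0.0344). GAL7 (-0.24), GAL10 (-0.06), GAL80 (0.17) and the activator gene GAL4 (-0.43) were not called. No call of the pathway remained with round as a block, where the median was -0.58. Of 6 other targets of Gal4, REE1, which acts on the enolase Eno1 (-1.13), and LAP3, a cysteine aminopeptidase (-0.77), were called lower, and both calls remained with the block.

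Genes of glycolysis and fermentation were lower in YSS89. Of 28 measured, 18 were called lower (64.3%, against 9.94% of all genes) and none higher, with a median of -0.74. TDH1, a glyceraldehyde-3-phosphate dehydrogenase, read 1135.3, 1046.5 and 870.9 in YSS37 and 68.3, 43 and 64.6 in YSS89 (17.7-fold lower, SE 0.50, adjusted p = 1.80e-05). ENO1, an enolase, read 3095.3, 3722.8 and 2434.5 against 597.8, 724.2 and 768.9 (-2.13, adjusted p = 3.13e-06). GPP2, a glycerol phosphatase (-1.84), and HXK1, a hexokinase expressed on carbon sources other than glucose (-1.67), were lower too. These 4 calls stood whichever array was left out and with round as a block, under which 13 of the 18 remained.

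Use of non-fermentable carbon was also lower, with 15 of 33 genes called lower (45.5%, against 9.94% of all genes), none higher and a median of -0.68. ADH2, the alcohol dehydrogenase that consumes ethanol, read 617.4, 856 and 652.2 against 61.1, 47.5 and 46.8 (-3.74, SE 0.20, 13.4-fold lower, adjusted p = 3.26e-10). JEN1, the lactate permease (-2.33), ACH1, an acetyl-CoA hydrolase (-2.24), and STL1, a glycerol symporter (-2.09), were next, and all but STL1 kept the call with round as a block, as did 7 of the 15 in all. The recipe of YPLG is not in the labels. TCA cycle genes had 8 of 13 called lower (61.5%, median -0.77), all of them whichever array was left out and 5 of them with round as a block. The first enzymes of the cycle, citrate synthase CIT1 and aconitase ACO1, read 775.4 to 923 against 329 to 367.6 (-1.26) and 1302.5 to 1716.7 against 621.7 to 674 (-1.15). Respiratory chain and ATP synthase genes had 8 of 42 called lower (19%, against 9.94% of all genes, median -0.14). The count was 5 without YSS37 replicate 3 or YSS89 replicate 2, nearer the share of all genes. The succinate dehydrogenase genes SDH2 (-0.71), SDH4 (-0.71) and SDH1 (-0.63) and the internal NADH dehydrogenase gene NDI1 (-0.63) were among the 8. SDH2 and SDH4 kept the call with the block, as did 3 of the 8 in all.

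Hexose transport and sensing split, with 4 of 18 called higher and 4 lower (22.2% each, against 14.1% and 9.94% of all genes). The high-affinity transporter genes HXT7 (988.1, 1285.9 and 1309.2 against 486.3, 418.2 and 524.4) and HXT6 were lower (-1.31 and -0.95), and these near-identical copies can share signal. HXT2 (1.10) and STD1, a modulator of glucose signalling (1.04), were higher, with HXT2 at 10.7 to 14.8 against 22.3 to 30.6. HXT7, HXT6 and STD1 kept their calls with round as a block, and the other 5 did not. In the pentose phosphate pathway 4 of 11 were called lower (36.4%), led by the minor isozymes NQM1, a transaldolase (-2.42), and GND2, a 6-phosphogluconate dehydrogenase (-1.94). The median of the pathway was 0.18, opposite in sign to the called members, and no call remained with the block. Its count was 2 without YSS37 replicate 1 or 2 or YSS89 replicate 2 or 3.

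Genes of the general stress and stationary phase response were lower in YSS89, with 22 of 40 called lower (55%, against 9.94% of all genes), none higher and a median of -0.87. HSP26, a small heat shock protein, read 810.3, 502.2 and 285 in YSS37 and 84.4, 43.1 and 45.3 in YSS89 (-3.16, SE 0.49, 8.96-fold lower, adjusted p = 0.000191). YSS37 replicate 3 was the lowest of its group, yet still above every YSS89 array. PAI3, a proteinase A inhibitor (-2.25), and FMP16, a mitochondrial protein (-2.38), followed. At time 0 the median of this group was -0.73, or -0.15 without the 2 YSS89 arrays that stood apart. With round as a block 8 of the 22 calls remained, HSP26 and PAI3 among them. Glycogen and trehalose genes had 8 of 18 called lower (44.4%, median -0.52). GAC1, which targets a phosphatase to glycogen synthase, read 71.7, 91.4 and 85.5 against 16.8, 19.8 and 18.6 (-2.16, adjusted p = 1.20e-06). The glycogen phosphorylase GPH1 (-1.35) and the branching enzyme GLC3 (-1.23) were lower too, and with the block they differed by -1.04 and -0.91 and were not called. Of the 8 glycogen and trehalose calls 2 remained with it. Antioxidant genes had 12 of 28 called lower (42.9%) and 2 higher (7.14%, against 14.1% of all genes), and 5 of these 14 calls remained with the block. PRX1, a mitochondrial peroxiredoxin, read 118.8 to 174.9 against 33.4 to 42.6 (-1.87, adjusted p = 2.37e-07), and the mitochondrial superoxide dismutase SOD2 read 699.4 to 772.4 against 250.4 to 281.4 (-1.44, adjusted p = 2.91e-05). CCP1, a cytochrome c peroxidase, was called higher (0.69). Chaperones, a list that holds HSP26, moved less. Of 29, 6 were called lower in all (20.7%, against 9.94% of all genes) and 1 higher (3.45%, against 14.1%), with a median of -0.16. With the block 1 of these 7 calls remained. Without YSS89 replicate 2 the 6 became 3, and SSA1, a cytosolic Hsp70 (-0.49), was among those lost.

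**Figure D5:**
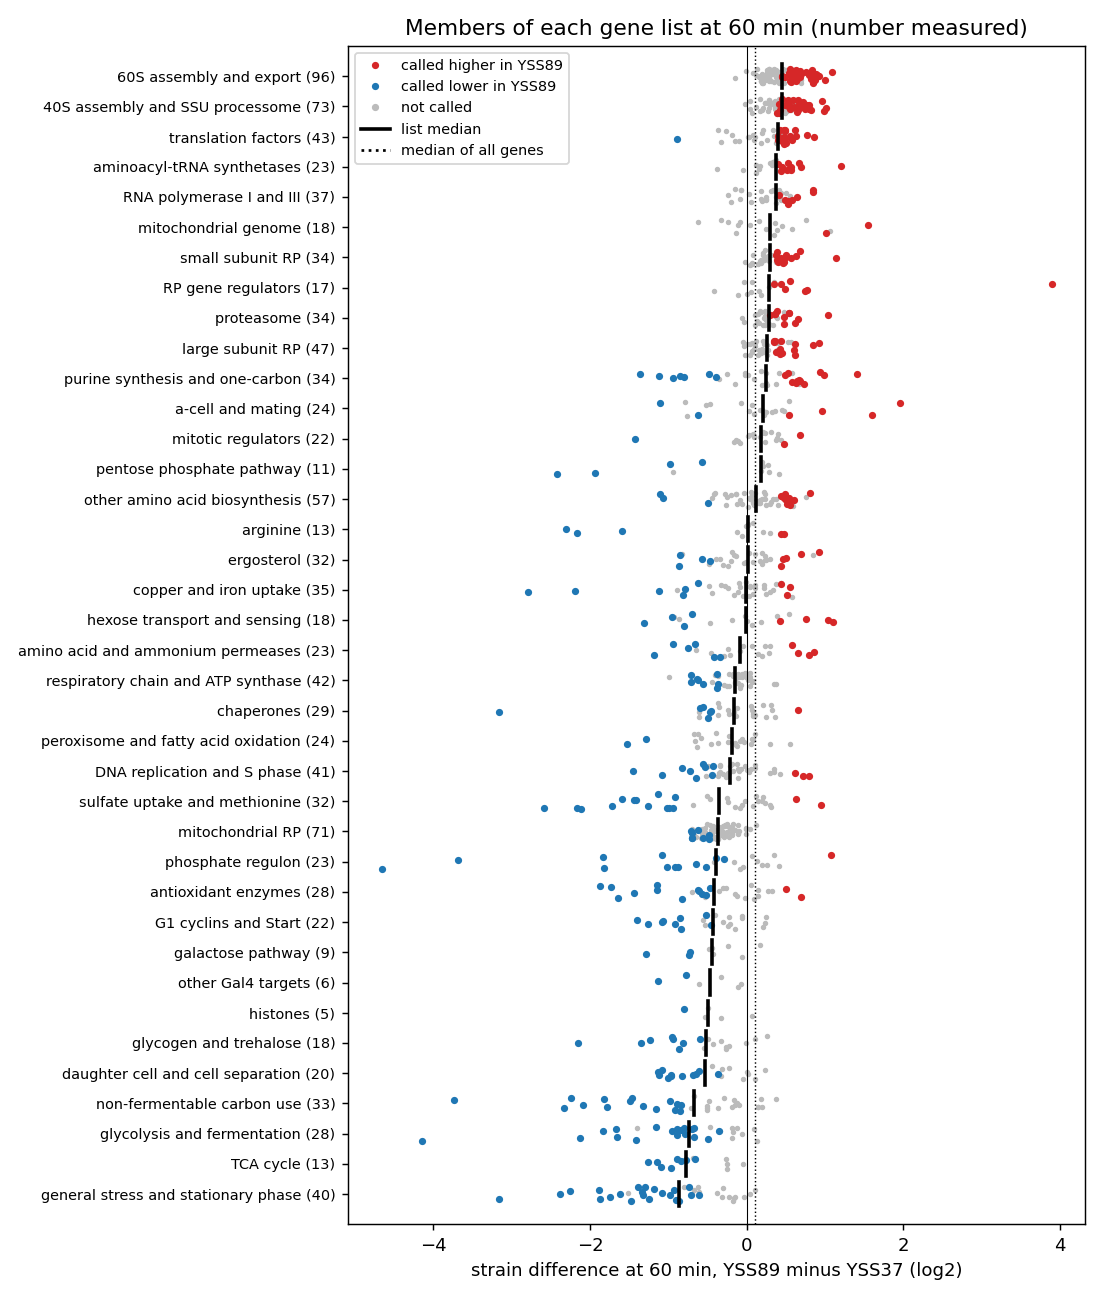
Strain difference at 60 min (log2, YSS89 minus YSS37) of the measured members of gene lists, 1 point a gene, with called genes in red (higher) or blue (lower), list medians as bars and the median of all genes dotted. Lists of ribosome assembly, translation and the proteasome lie to the right of 0, and those of glycolysis, the TCA cycle, stress and daughter cell genes to the left.

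The phosphate regulon held the most strongly lowered gene. Of 23 genes, 12 were called lower (52.2%, against 9.94% of all genes) and 1 higher, with a median of -0.39, and 5 of the 13 calls remained with round as a block. PHO84, the high-affinity phosphate transporter, read 345.1, 491.3 and 244.6 in YSS37 and 12.9, 17.4 and 7.9 in YSS89 (-4.66, SE 0.26, 25.3-fold lower, adjusted p = 4.40e-10). The lowest of these lies close to the floor of the array, so the size of the fall is less certain than its call. GIT1, a glycerophosphoinositol permease, read 54.4, 43.9 and 22.1 against 0.8, 1 and 4.1, the latter at the floor of the array, so that it was called lower (adjusted p = 4.35e-06) by an amount that these arrays do not give. PHO90, a low-affinity phosphate transporter, was the gene called higher, with 145.3, 151.2 and 151.6 against 353.3, 288.2 and 303 (1.08, adjusted p = 0.000287). All 3 kept their calls with round as a block. Sulfate uptake and methionine genes had 13 of 32 called lower (40.6%) and 2 higher (6.25%), with a median of -0.36, and 5 of the 15 calls remained with the block. MET6, the methionine synthase, read 286.2, 323.1 and 313.8 against 77.2, 79.5 and 64 (-2.12, adjusted p = 1.17e-06). The homoserine acetyltransferase MET2 (-2.59) and the ATP sulfurylase MET3 (-1.71) were lower as well, and MET31, a zinc finger regulator (0.95), and MET13, a methylenetetrahydrofolate reductase (0.62), were higher. The 3 lower genes kept their calls with the block and the 2 higher ones did not.

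Of 13 arginine genes 3 were called lower (23.1%, against 9.94% of all genes) and 2 higher (15.4%, against 14.1%), and the median was 0.01. ARG1, argininosuccinate synthetase, read 90.6 to 155.6 against 21.3 to 25.6 (-2.30). The catabolic genes CAR1, arginase, read 228.1 to 301.5 against 83.2 to 90 (-1.59), and CAR2, ornithine aminotransferase, 174.1 to 302.2 against 50.5 to 62 (-2.17). All 3 kept the call with round as a block, with adjusted p at most 0.0104. The biosynthetic genes ARG8 (0.48, adjusted p = 0.036) and ARG2 (0.44, adjusted p = 0.0339) were the 2 called higher, and neither call remained with the block. The other amino acid genes were near the background, with 10 of 57 called higher (17.5%) and 3 lower (5.26%), and 1 of the 13 calls remained with the block. The higher count was 3 without YSS37 replicate 1 and 6 without YSS89 replicate 1 or 2. LYS20, a homocitrate synthase, read 521.4 to 591.6 against 201.2 to 317 (-1.07, adjusted p = 0.000172). In purine synthesis and one-carbon metabolism 11 of 34 were called higher (32.4%), 7 without YSS37 replicate 2, and 7 lower (20.6%), and 6 of the 18 calls remained with the block. IMD2, an inosine monophosphate dehydrogenase of guanine nucleotide synthesis, read 177.9, 206.9 and 221.9 against 581.7, 523.8 and 445.9 (1.41, SE 0.19, adjusted p = 5.39e-05), and all 3 of its probe sets were called higher. The glycine cleavage genes GCV2 (-1.12) and GCV1 (-0.94) and the serine hydroxymethyltransferase gene SHM2 (-0.85) were lower. These 4 kept their calls with the block.

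Copper and iron uptake had 6 of 35 called lower (17.1%, against 9.94% of all genes) and 3 higher (8.57%, against 14.1%), with 2 of the 9 calls left with round as a block. CTR1, the copper transporter, read 259, 173.8 and 234.5 against 58.7, 45.8 and 44.1 (-2.20, adjusted p = 0.000240), and FRE7, a reductase, 29.3 to 54.3 against 4.3 to 5.3 (adjusted p = 0.000723), the latter near the floor, so that no size is given. The lower count was 2 without YSS37 replicate 1 and 3 without YSS89 replicate 3, and the higher count was 1 without YSS37 replicate 2 or 3 or YSS89 replicate 1 or 3. Of 32 ergosterol genes 5 were called higher (15.6%) and 4 lower (12.5%), shares near those of all genes, and 3 of the 9 calls remained with the block. ERG3, the C-5 sterol desaturase, read 1127.8 to 1226.7 against 570.6 to 676.9 (-0.86, adjusted p = 0.000390), and the sterol regulator ECM22 read 32.3 to 38.8 against 67.9 to 75 (0.92, adjusted p = 0.000212). The higher count was 3 without any array but YSS37 replicate 3, and the lower count 2 without YSS89 replicate 3. Of 23 amino acid and ammonium permeases 4 were called higher (17.4%) and 6 lower (26.1%), and 1 of the 10 calls remained with the block. The higher count was 2 without any array but YSS89 replicate 2, and the lower count 2 without YSS37 replicate 2 and 3 without YSS37 replicate 1 or YSS89 replicate 2 or 3. BAP3, a branched-chain amino acid permease, read 81.8 to 96.9 against 40.4 to 47.2 (-1.18, adjusted p = 0.000971), and lost its call with the block.

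Genes of the G1 to S transition were lower in YSS89. Of 22 genes of G1 cyclins and Start, 9 were called lower (40.9%, against 9.94% of all genes) and none higher, with a median of -0.43. CLN1, a G1 cyclin, read 149, 162.9 and 187.1 against 67.4, 64 and 65.3 (-1.40, SE 0.17, adjusted p = 2.57e-05), and its relative CLN2 read 133.8, 148.5 and 116.3 against 50.1, 64 and 61.8 (-1.26, adjusted p = 6.64e-05). NRM1, a corepressor of G1 transcription (-1.07), was lower too, and of the 9 calls these 3 remained with round as a block. Of 41 genes of DNA replication and S phase, 9 were called lower (22%) and 3 higher (7.32%), and 3 of the 12 calls remained with the block. MCD1, a cohesin subunit, read 35.2, 45 and 37.2 against 12.5, 12.8 and 16.9 (-1.45, adjusted p = 4.35e-06). RNR1, the large subunit of ribonucleotide reductase, read 686, 796.8 and 729.2 against 301.1, 360.6 and 318.9 (-1.08, adjusted p = 5.36e-06). The helicase genes MCM4 (0.79) and MCM2 (0.62) were called higher, though not with the block, under which MCD1 and RNR1 stayed called. Of 5 histone genes measured alone, the linker histone gene HHO1 was called lower (-0.80), also with the block.

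Genes expressed in daughter cells and at cell separation had 11 of 20 called lower (55%) and none higher, with a median of -0.53 at 60 min and 0.06 at 30 min. SCW11, a cell wall glucanase, read 117.8, 109.2 and 96.9 against 53.6, 53.1 and 50.2 (-1.13, SE 0.14, adjusted p = 2.57e-05). ASH1, the daughter-specific repressor of HO, read 231.9, 270.4 and 289.3 against 114.8, 112.4 and 135.9 (-1.12, SE 0.15, adjusted p = 5.29e-05). AMN1, which acts in exit from mitosis, was also lower (-1.08). SCW11 and ASH1 kept their calls with round as a block, as did 5 of the 11 in all. The count was 7 without YSS89 replicate 1 or 3. Mitotic regulators had 2 of 22 called higher (9.09%, against 14.1% of all genes) and 1 lower (4.55%, against 9.94%), with a median of 0.18, and 1 call remained with the block. The lower gene is CLB1, a mitotic cyclin, which read 48 to 61.2 against 16.9 to 22 (-1.43, adjusted p = 9.58e-05), and the higher ones are MYO1, the myosin of the division ring (0.69), whose 8 probe sets disagreed, and BUD8, a bud site marker (0.48). Among 24 a-cell and mating genes, 4 were called higher (16.7%) and 2 lower (8.33%), shares near those of all genes. MFA1, an a-factor gene, read 109.1, 75.5 and 67 against 292.4, 356.8 and 341.5 (1.96, SE 0.33, adjusted p = 0.000372). STE6, the a-factor exporter, read 58.9 to 72 against 122.1 to 144.2 (0.97, adjusted p = 0.000220), and SST2, a GTPase activator that damps pheromone signalling, 10.3 to 18.6 against 41.5 to 45.8 (1.60, adjusted p = 0.000696). HO, the mating type switching endonuclease, read 247.9 to 260.8 against 110.2 to 127.5 (-1.11, adjusted p = 2.91e-05). MFA1, STE6 and HO kept their calls with round as a block, and the other 3 did not.

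Among the 15 largest downward differences not yet described, OPT2, an oligopeptide transporter, read 103.5 to 118.1 against 13.3 to 25.5 (-2.62, adjusted p = 1.13e-06). MPC3, a mitochondrial pyruvate carrier used in respiration, read 110.8 to 173.8 against 22.2 to 32.7 (-2.48), and PUT1, a proline oxidase, 123.5 to 255.5 against 33.2 to 37.7 (-2.40). ICY1, a protein of unsettled function, was lower by a similar amount (-2.52). All 4 were called whichever array was left out and with round as a block. On the upward side NCE103, a carbonic anhydrase, read 114.4 to 217.9 against 399.2 to 705.3 (1.62, adjusted p = 0.0321), and of the 6 arrays only leaving out YSS37 replicate 1 kept its call.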

How the data were processed

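Total RNA was read on 1-colour Affymetrix YG_S98 arrays, per the labels. The authors deposited an intensity for each probe set, not in log form. Its 2% trimmed mean is 100.1 on every array, so the authors had scaled the arrays to 1 level, while the summary algorithm is not given in the sources used here. Chip lots and the 4 hybridization rounds were read from settings, per the file headers. Control probe sets (60) were left out. The deposited intensities were raised by 1.4 (their 10th percentile), put on a log2 scale and quantile normalized over 24 arrays. With R 4.3.3 and limma 3.58.1, 8 group means were fitted to all arrays, to share the estimate of spread, and YSS89 minus YSS37 at 60 min was tested with Benjamini-Hochberg adjustment over 9275 probe sets, tested on simulated data first. A gene is its brightest probe set of those naming 1 gene. Of the probe sets 6504 name 1 gene, 328 several and 2443 none. The number of arrays limits the precision: the median SE over genes was 0.176. A fold change on this scale understates that of dim genes.

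Genes were named by a rule: 5 lists in full (strain markers, RP gene regulators, CURI complex, galactose pathway, neighbours of IFH1), the 15 largest and 15 smallest called differences without overlap and not among the dimmest 25%, up to 4 called members at each end of each of 42 lists, and the 3 highest and lowest probe sets naming several RP genes. Members, lists and tests were chosen with earlier results of these data known. Which of the rule's genes are left out or given by range was decided after the values were seen. Same-numbered replicates did not deviate together (r -0.06, -0.0024 and -0.04), so no block by number was used. Alternatives were other scalings, pseudocounts and filters, only 6 arrays in the fit, a block by round or number, the shared round alone, and each array left out. No genome or sequence tables came with these data, and none is used.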

Additional observations from a re-analysis of the deposited data

Results flagged for a closer look

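The strains shared a hybridization round at 60 min and none at 30 min. The strain difference at 60 min minus that at 30 min was tested in the same limma fit, with Benjamini-Hochberg adjustment over all probe sets. It was called for 103 of 5656 genes (1.82%) and for 10 of the 214 named genes, which are the results listed here. It was below 0 for ADH2, IFH1 and SCW11. For ADH2 the value was -2.03 (adjusted p = 0.00179), with strain differences of -3.74 at 60 min and -1.71 at 30 min. For IFH1 it was -1.12 (adjusted p = 0.028), with 3.90 and 5.02. For SCW11 it was -1.11 (adjusted p = 0.00938), with -1.13 and -0.02.

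It was above 0 for the other 7 genes. IMD2 had 1.35 (adjusted p = 0.0163), with strain differences of 1.41 at 60 min and 0.06 at 30 min. The proteasome genes RPT1, RPN1 and RPN2 had 1.01, 0.84 and 0.81 (adjusted p of 0.00256, 0.0115 and 0.0124), and RPT1 differed by 0.65 at 60 min and -0.36 at 30 min. MET13 had 0.996 (adjusted p = 0.0264), SSA1 had 0.95 (adjusted p = 0.0128) and TRP1 had 0.84 (adjusted p = 0.0393), with -0.09 at 60 min and -0.93 at 30 min for TRP1. No group of 4 or more arrays exists here, so single arrays were not tested as outliers.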

How the results depend on the processing

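The IFH1 difference stayed called and in the same direction in every setting tried. Counts moved most with the number of arrays and with round. With only the 6 arrays at 60 min in the fit, 1076 probe sets were called (455 higher) and 731 genes (353 higher), with 5 large and 6 small subunit RP genes. With hybridization round as a block these were 479 probe sets (183 higher, 296 lower), 330 genes (146 higher, 184 lower) and 3 and 3 RP genes, and 44.2% of called genes were higher against 58.7%. With the 60 min arrays of the shared round alone, 1 a strain and assumed to vary like the other groups, they were 184 (55 higher, 129 lower), 107 (37 higher, 70 lower) and 0 and 0. As deposited, 36 large and 30 small subunit genes were called, and with median centring 24 large subunit genes. Leaving out 1 array gave 604 to 760 higher probe sets, 502 to 636 higher genes, 7 to 13 large subunit and 8 to 12 small subunit genes. The lowest higher counts came without YSS37 replicate 2 (604 and 502) and YSS89 replicate 3 (619 and 526).

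Same-numbered replicates were not found to be paired. With a replicate block 800 genes were called higher and 579 lower, and 211 of 213 named genes kept their side of the threshold. With round as a block 111 of the 213 lost their call and 100 did not change side. Signs turned for 4 named genes, of which ECM10 alone was called, and for the medians of 5 of 42 lists: ECM10 -0.11 in the shared round, TRP1 0.037 with the round block, 0.035 in the shared round and -0.15 to 0.0091 with 1 array left out (the latter without YSS89 replicate 2), SFP1 -0.10 and -0.24 in the same 2 settings, -0.072 to 0.13 with 1 array left out (-0.072 without YSS37 replicate 2, -0.020 without YSS89 replicate 3), GAL10 0.072 as deposited and -0.15 to 0.0019 with 1 array left out (the latter without YSS89 replicate 1), and the pentose phosphate median -0.087 with the round block. The other 4 medians lay within 0.02 of 0: hexose transport (0.035 with the round block, 0.10 in the shared round), arginine, ergosterol (-0.083 with centring) and copper and iron (0.027 as deposited, 0.0033 in the shared round). The cause was not tested. The 60 against 30 min comparison called 38 to 101 genes with 1 array left out (38 without YSS37 replicate 2 at 30 min), and 10 to 21 proteasome genes, 14 with the round block. Leaving 2 time 0 arrays out of the fit, chosen after seeing the data, gave 1417 genes. Probe sets near the floor hold little more than background.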

Other observations

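TPO2, a polyamine exporter picked after its values were seen, had a strain difference of 1.62 at 30 min and -1.39 at 60 min. It showed the widest turn among the 12 genes called in opposite directions at these times.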
